A study of Mus musculus with 2 samples.

Results

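The basal-keratin-rich spots were 200 positions of a spatial transcriptomic array over 2 mouse skin sections, 100 in each, picked by epidermal genes without histology. They were chosen from 2263 spots over tissue, 1282 in the *S1pr2fl/fl* section and 981 in the *S1pr2fl/fl K14-Cre* section, of which 1096 and 947 held at least 500 unique molecular identifiers (UMIs, each the tag of 1 captured molecule). In each section these deeper spots were ranked by the share of UMIs from *Krt5*, *Krt14*, *Krt1*, *Krt10*, *Dsp*, *Perp*, *Sfn* and *Lgals7*. Among the top 200, the 100 with the lowest ratio of *Krt1*, *Krt10*, *Flg* and *Hrnr* UMIs to *Krt5* and *Krt14* UMIs were taken, with 1 UMI added on each side. The other 100 of the 200 are called the upper 100 spots, and the remaining 896 and 747 spots the other spots. A spot is a small region that can hold several cells of different kinds.

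Both mice carried floxed *S1pr2* alleles, and both were treated at 8 weeks of age with 62.5 mg of 5% imiquimod (IMQ) cream a day for 7 days on depilated back skin. IMQ is an agonist of a Toll-like receptor that gives skin inflammation resembling psoriasis. One mouse also carried *K14-Cre*, a recombinase under the promoter of keratin 14, which is active in basal keratinocytes and also in follicle and other epithelia that use keratin 14. Formalin-fixed, paraffin-embedded sections of 10 μm were read with probes on the Visium CytAssist platform. Each genotype was 1 section of 1 mouse and no untreated section was analysed here, so genotype, animal and section cannot be told apart, no test between them was possible, and intervals cover counting error only.

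Basal keratinocytes form the lowest layer of the epidermis, where they are anchored to the basement membrane by hemidesmosomes and carry the keratin pair KRT5 and KRT14. Cells that leave this layer switch to KRT1 and KRT10 and later make the proteins of the cornified envelope. Division is largely a property of the basal layer in healthy skin. The outer root sheath of the hair follicle shares KRT5 and KRT14 with it, and KRT6, KRT16 and KRT17 appear in the follicle and in wounded or inflamed epidermis.

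The spots were rich in the keratins that chose them, and this is a description only. *Krt14* per 1000 UMIs of a spot had a lowest value, median and highest value of 20.9, 39.7 and 56.8 in the *S1pr2fl/fl* section. The same values were 8.23, 23.6 and 47.8 in the *S1pr2fl/fl K14-Cre* section, so that the spots of both sections overlapped. *Krt5* per 1000 UMIs had medians of 4.06 and 4.71, with highest values of 12.8 and 12.5. *Krt14*, on chromosome 11 (GRCm38.p6, chr11:100203162-100207510), gave UMIs in 100 of 100 spots of each section, and *Krt5* (chr15:101707069-101712905) in 97 and 99.

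The same rule drew very different lines in the 2 sections. The last spot taken had an epidermal share of 6.54% of its UMIs in the *S1pr2fl/fl* section and 2.86% in the *S1pr2fl/fl K14-Cre* section, and the first spot left out had 6.50% and 2.83%. The ratio of differentiation to basal keratin UMIs was 1.21 both at the last spot taken and at the first left out in the *S1pr2fl/fl* section, against 0.160 for both in the *S1pr2fl/fl K14-Cre* section. Its median over the selected spots was 0.641 and 0.0658. Of the 100 selected *S1pr2fl/fl* spots, 4 lay at or under the limit of the other section. Under the *S1pr2fl/fl* limit of this ratio lay all 100 selected *S1pr2fl/fl K14-Cre* spots and 84 of the upper 100. With the *S1pr2fl/fl* limit of the epidermal share applied too, that section kept only 23 selected and 4 upper spots. Summed over the selected spots, the *S1pr2fl/fl* section held *Krt10* at 11139 counts per 1000000 UMIs of the region (CPM) and *Krt1* at 8501 CPM. The same sums in the *S1pr2fl/fl K14-Cre* section were 798 and 975 CPM. A UMI of *Krt10* was found in 100 and 59 of 100 selected spots, and of *Krt1* in 100 and 72.

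Beyond *Krt5* and *Krt14*, the label of basal keratinocytes was borne out only in part. The 9 other basal genes measured, such as *Krt15*, *Trp63*, *Aqp3* and *Cdh3*, summed to 805 CPM in the selected spots, 715 CPM in the upper 100 and 831 CPM in the other spots of the *S1pr2fl/fl* section. In the *S1pr2fl/fl K14-Cre* section they summed to 761, 652 and 435 CPM. For all 9 genes the log2 ratio of selected to upper spots was 0.17 (95% interval -0.02 to 0.37) and 0.22 (-0.05 to 0.50), intervals that hold 0. The spots are therefore named here by their keratins, not as a cell type.

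Depth differed between the sections. The selected spots held 577709 UMIs in all in the *S1pr2fl/fl* section and 350700 in the *S1pr2fl/fl K14-Cre* section. UMIs per spot ranged from 553 through a median of 4126 to 26504 in the former, and from 731 through 2827.5 to 15351 in the latter. The median number of genes with a UMI was 1654.5 and 1341.5. Over the whole sections the files hold 5315351 and 2845826 UMIs. The sections share 357 spot barcodes, 7 of them among the selected spots of both; on such arrays a barcode marks a position, not a cell.

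**Figure D1:**
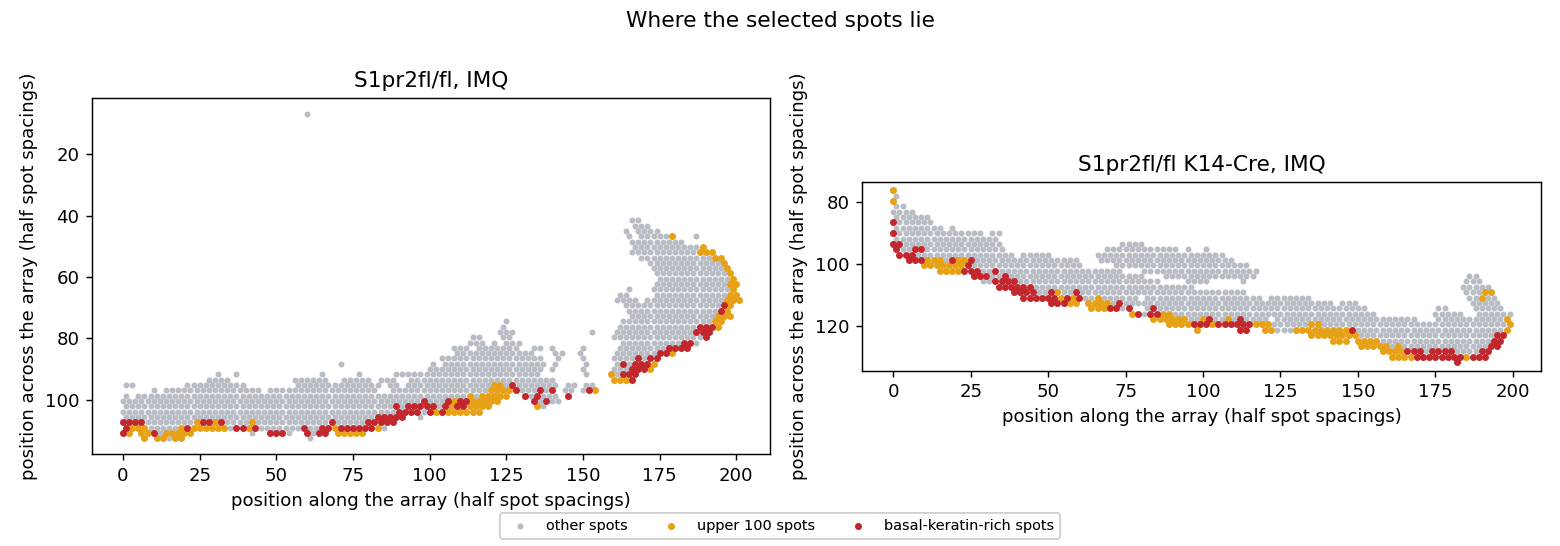
Array positions of all spots with at least 500 UMIs in the *S1pr2fl/fl* section (left) and the *S1pr2fl/fl K14-Cre* section (right), with both axes in steps of 0.5 spot spacings. Red points are the 100 basal-keratin-rich spots, orange points the upper 100 and grey points the 896 and 747 other spots; red and orange stretches alternate along the lower border of the tissue as drawn in both sections.

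Position was not used by the rule, and the selected spots lay along 1 border of the tissue in both sections, as the map of the array shows. Of the 527 tissue spots that adjoined a selected spot in the *S1pr2fl/fl* section, counted once for each selected spot they touched, 42.5% were selected spots too, 15.9% belonged to the upper 100 and 38.3% were other spots. In the *S1pr2fl/fl K14-Cre* section 484 such places divided into 53.7%, 11.0% and 34.3%. The selected spots thus lay beside one another more often than beside the upper spots. A free edge of the tissue ran past 40 of 100 selected spots in the *S1pr2fl/fl* section and 58 in the *S1pr2fl/fl K14-Cre* section, and past 67 and 56 of the upper 100, where 32.4% and 34.5% of all tissue spots were at an edge. They fell into 24 connected groups, the largest of 28 spots, and into 17 groups, the largest of 26. Of the selected spots, 48 and 32 touched an upper spot and 85 and 74 touched an other spot, so that most of them bordered on tissue below or outside the top 200.

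*S1pr2*, the gene targeted by the floxed alleles, encodes a receptor for sphingosine 1-phosphate. It was at the limit of detection: 7 UMIs in 6 of 100 selected spots of the *S1pr2fl/fl* section and 8 UMIs in 3 of 100 of the *S1pr2fl/fl K14-Cre* section. The ratio of CPM, *S1pr2fl/fl K14-Cre* over *S1pr2fl/fl*, was 0.91 on the log2 scale with an interval of -0.75 to 2.61. In the other spots 91 of 896 (10.2%, Clopper-Pearson interval 8.26 to 12.3%) and 33 of 747 (4.42%, 3.06 to 6.15%) held a UMI as deposited. With each spot thinned to 500 UMIs these shares were 0.670% (6 spots) and 0.669% (5 spots), nearly equal but resting on few spots. A chemosensory receptor gene, of a class known mainly from the nose and tongue and used here as a background, had a 95th percentile of 2 UMIs over the selected spots of the *S1pr2fl/fl* section and 8 UMIs over those of the *S1pr2fl/fl K14-Cre* section, so the 8 UMIs of *S1pr2* in the latter were not above this background. A loss of *S1pr2* was not detectable at this depth, and whether the probes lie in the deleted part is not given in the sources used here. *S1pr2* lies on chromosome 9 (GRCm38.p6, chr9:20965952-20976793). The 8 genes of S1P receptors and enzymes, *S1pr2* among them, had 163 and 84 UMIs together. Their log2 ratio was -0.24 (-0.63 to 0.15) with CPM, and between -0.79 and 0.23 with other settings. *Sgpl1*, the lyase that breaks S1P down, gave 60 and 11 of these UMIs, and *S1pr1* was at 0 in both sections.

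Hemidesmosome and basement membrane genes, which the rule did not use, summed to slightly more in the selected than in the upper spots. Their sum was not higher than in the other spots of the *S1pr2fl/fl* section. The 14 genes summed to 1890 CPM in the selected and 1665 CPM in the upper spots of the *S1pr2fl/fl* section, a log2 ratio of 0.18 (0.06 to 0.31). They summed to 2515 and 2087 CPM in the *S1pr2fl/fl K14-Cre* section, a log2 ratio of 0.27 (0.12 to 0.42). The other spots held 1917 and 2012 CPM. There 1 gene, *Plec*, gave 31.2% and 43.1% of the UMIs of the list, against 19.4% in the selected *S1pr2fl/fl K14-Cre* spots. In the selected *S1pr2fl/fl* spots *Col17a1* gave the most, 21.2%. The list without *Plec* was not summed. Per spot the list had medians of 1.53 and 2.26 per 1000 UMIs, highest values of 5.58 and 6.21, and lowest values of 0. The differences between selected and upper spots were small beside the spread between spots, which overlapped throughout.

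**Figure D2:**
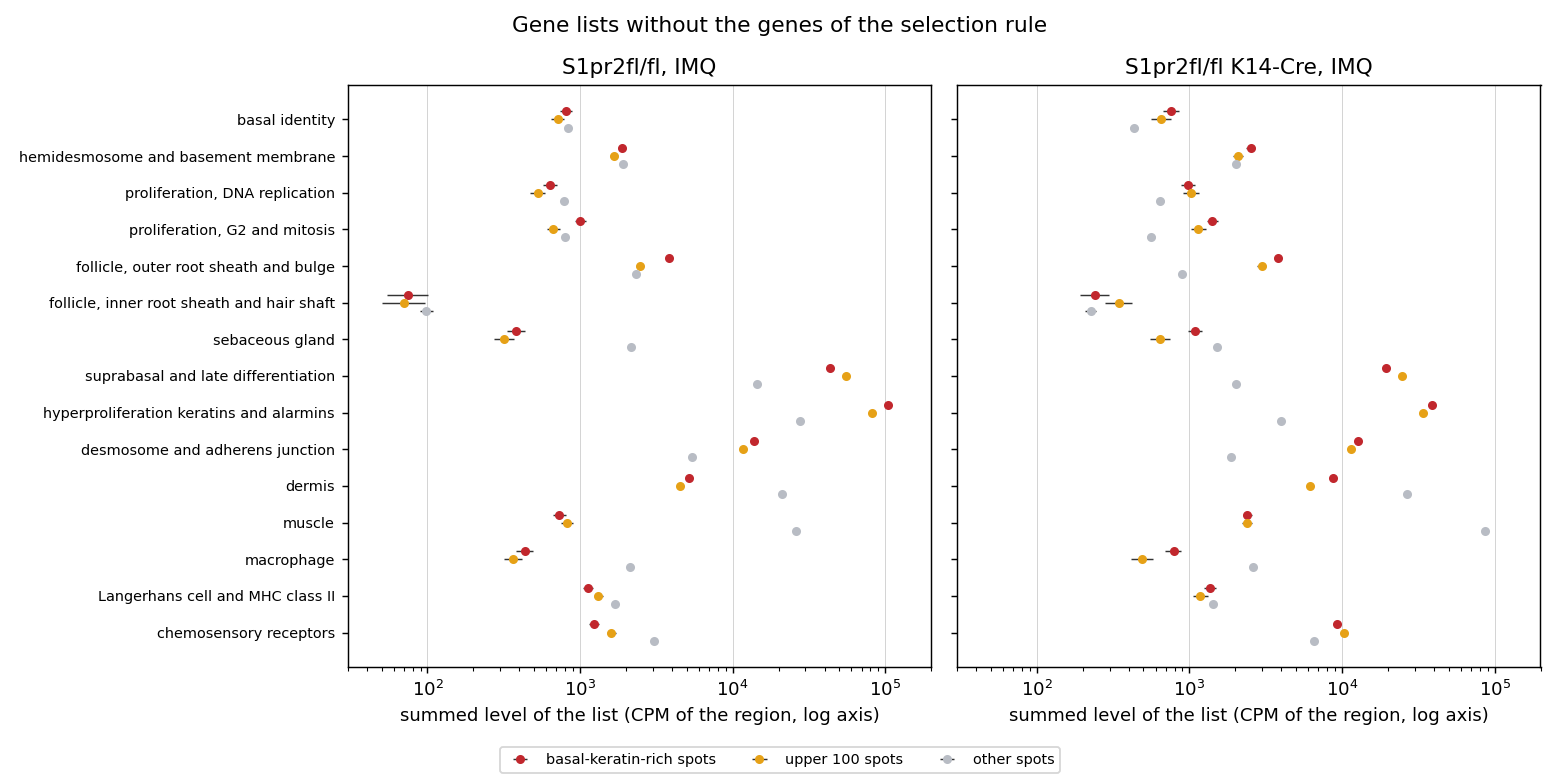
Summed level of 15 gene lists, without the genes of the selection rule, in CPM of the region on a log axis, for the basal-keratin-rich (red), upper (orange) and other spots (grey) of each section; bars are exact 95% Poisson intervals and are often smaller than the point. Late differentiation genes and alarmins stand far above the proliferation lists and the reduced basal list in the selected spots of both sections. The basal list lacks *Krt5* and *Krt14*, and the late differentiation list lacks *Krt1*, *Krt10*, *Flg* and *Hrnr*. *Krt14* alone was at 37612 and 25697 CPM in the selected spots. Chemosensory receptor genes reach 9299 CPM in the selected *S1pr2fl/fl K14-Cre* spots against 1236 CPM in those of *S1pr2fl/fl*.

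Members of the hemidesmosome list differed from one another. *Itga6*, the alpha chain of the hemidesmosomal integrin, had 187 UMIs in the selected and 133 in the upper spots of the *S1pr2fl/fl* section, and 128 and 75 in the *S1pr2fl/fl K14-Cre* section. These counts give log2 ratios of 0.50 and 0.47. *Itgb4*, its beta chain, gave ratios of 0.54 (110 against 76 UMIs) and 0.18 (153 against 109). *Dst*, which encodes a plakin that links keratins to the hemidesmosome, gave 0.32 and 0.92. *Col17a1*, a transmembrane collagen of the same structure, did not follow: 231 against 248 UMIs and 79 against 63, ratios of -0.10 and 0.02. Of the 12 members that reached 20 UMIs, 2 were at least 2-fold higher in the selected than in the upper spots of the *S1pr2fl/fl* section, where 4.55% of all 6972 such genes were. In the *S1pr2fl/fl K14-Cre* section 0 of 11 were, where 8.15% of 5930 genes were; 8 of the 12 and 8 of the 11 had a ratio above 0. The rule chose these spots from the same libraries, so nothing is read from these counts.

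Between the sections, the hemidesmosome list was 0.41 higher on the log2 scale in the selected *S1pr2fl/fl K14-Cre* spots (0.28 to 0.54), a direction that turned to -0.14 with TMM scaling. This difference has to be read against the median of all 6818 genes with at least 20 UMIs, which stood at 0.15 with CPM and at -0.41 with TMM. With CPM 1297 genes were at least 2-fold higher and 920 lower, and with TMM 550 and 1936. Of 12 hemidesmosome genes, 3 were at least 2-fold higher and 0 at least 2-fold lower, where 19.0% and 13.5% of all genes were. *Lama3*, a chain of the laminin that hemidesmosomes bind, had 28 UMIs in the *S1pr2fl/fl* and 87 in the *S1pr2fl/fl K14-Cre* section, a log2 ratio of 2.36 (1.73 to 3.03). *Itgb4*, with 110 and 153 UMIs, had a ratio of 1.20 (0.83 to 1.56). *Col17a1* went the other way with 231 and 79 UMIs, a ratio of -0.83 (-1.21 to -0.45). *Itga6* lay near the median at 0.17 (-0.16 to 0.51). The other basal genes as a list gave -0.08 (-0.30 to 0.14) with CPM, an interval that holds 0. Other settings moved this list to between -0.63 and 0.39, and both of these values lie outside that interval.

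Of the single basal genes, *Trp63*, which encodes the transcription factor p63 of stratified epithelia, had 66 and 52 UMIs in the selected spots and 69 and 21 in the upper spots. It was found in 38 and 20 of 100 selected spots as deposited, and in 5 and 4 of 100 once each spot was thinned to 500 UMIs. *Krt15*, a keratin of resting basal cells and of the follicle bulge, was lower in the selected than in the upper spots of both sections, with 40 against 69 and 27 against 43 UMIs. Its 1560 and 472 UMIs in the other spots, in 36.2% of those spots in the *S1pr2fl/fl* section and 16.5% in the other, show that most of it lay outside the top 200. *Aqp3*, a glycerol and water channel of the lower epidermal layers, held 222 and 121 UMIs, about as many as the 8 other genes of this list together. *Fgfr2*, a growth factor receptor, had 37 and 5 UMIs, and *Egfr* 16 and 20. The 5 UMIs of *Fgfr2* in the *S1pr2fl/fl K14-Cre* spots were under the 95th percentile of a chemosensory gene there, 8 UMIs, and *Egfr* gave a log2 ratio of 1.04 (0.02 to 2.09).

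Proliferation genes had UMIs in 86 of 100 selected spots of the *S1pr2fl/fl* section and 95 of 100 of the *S1pr2fl/fl K14-Cre* section. The 37 genes of DNA replication and mitosis had 950 UMIs, or 1644 CPM, in the selected spots of the *S1pr2fl/fl* section and 843 UMIs, or 2404 CPM, in those of the *S1pr2fl/fl K14-Cre* section. The upper spots held 1197 and 2172 CPM, and the other spots 1581 and 1205 CPM. Per spot the list ranged from 0 through a median of 1.30 to 4.88 per 1000 UMIs, and from 0 through 2.15 to 7.93. The selected spots of the 2 sections overlapped over most of this range.

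Within the *S1pr2fl/fl* section the selected spots exceeded the upper spots by 0.46 on the log2 scale for this list (0.32 to 0.60), and within the *S1pr2fl/fl K14-Cre* section by 0.15 (-0.01 to 0.30), which turned to -0.20 with the top 100, then 50 spots. The intervals of both parts of the list overlapped. The 18 genes of G2 and mitosis gave 0.59 (0.40 to 0.78) and 0.31 (0.10 to 0.51), and the 19 genes of DNA replication gave 0.27 (0.05 to 0.50) and -0.06 (-0.29 to 0.17). Of the 25 proliferation genes with enough UMIs in each section, 4 and 3 were at least 2-fold higher in the selected spots, where 4.55% and 8.15% of all genes were, and 0 and 2 at least 2-fold lower, where 3.74% and 8.18% of all genes were. The rule used this contrast, and nothing is read from these counts. *Mki67*, a marker of cycling cells, had 157 against 115 UMIs and 95 against 49, log2 ratios of 0.46 and 0.65. *Birc5*, an inhibitor of apoptosis that acts at mitosis, had 32 against 18 and 47 against 13, and *Tpx2*, a spindle assembly factor, 18 against 6 and 20 against 3. In the upper *S1pr2fl/fl K14-Cre* spots the 3 UMIs of *Tpx2* were under the 95th percentile of a chemosensory gene, 7 UMIs. No direction is read from them.

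**Figure D3:**
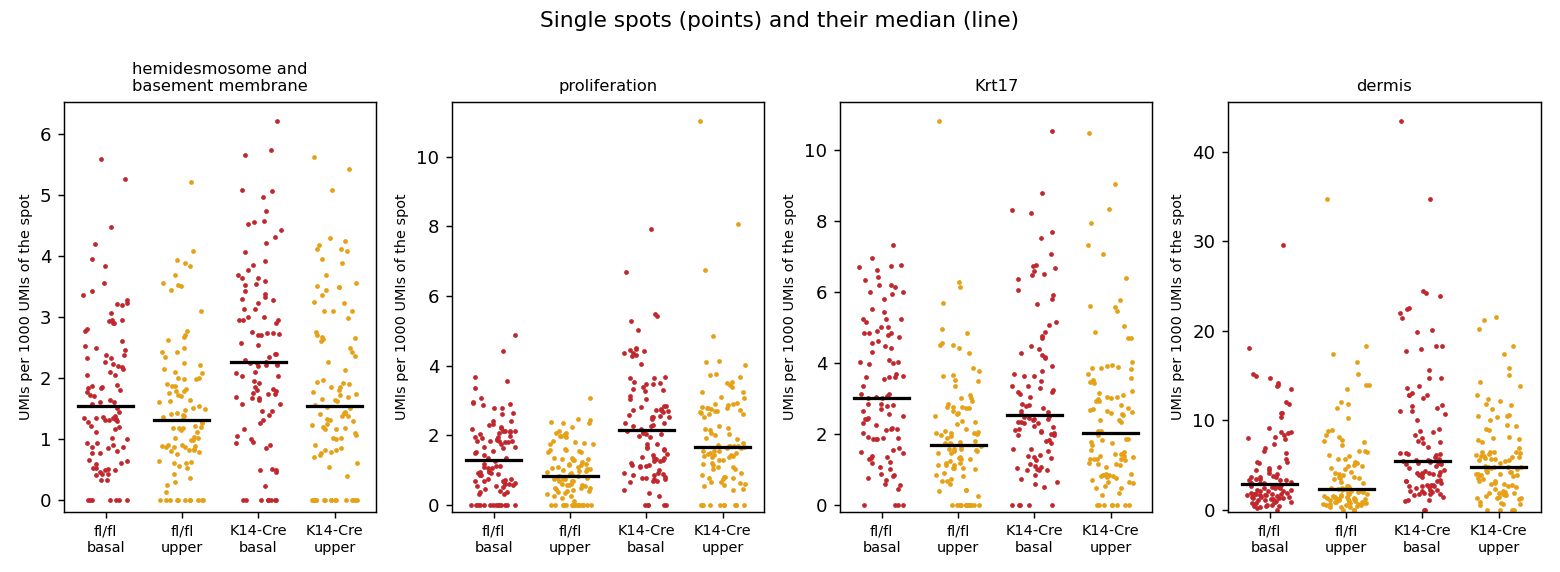
UMIs of 3 gene lists and of *Krt17* per 1000 UMIs of a spot, for each of the 100 basal-keratin-rich (red) and 100 upper spots (orange) of each section; lines are medians and points are spread sideways at random. Spots of all 4 sets overlap for every measure, and the medians of the hemidesmosome list in the selected spots are 1.53 and 2.26.

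Between the sections the proliferation list was 0.55 higher in the selected *S1pr2fl/fl K14-Cre* spots on the log2 scale (0.41 to 0.68), which became -0.0069 with TMM scaling, and 7 of 28 genes were at least 2-fold higher and 1 lower. These shares lie close to the background of 19.0% and under that of 13.5%. *Cdk1*, the kinase that drives entry into mitosis, had 77 and 104 UMIs, a ratio of 1.15 (0.71 to 1.60). *Ccna2*, its cyclin partner, had 72 and 81 UMIs (0.89, 0.41 to 1.37). *Mki67* was level with CPM only, at 272 and 271 CPM with a ratio of -0.0047 (-0.39 to 0.37). TMM factors shift the ratio of every gene of these spots downward by 0.55, which takes *Mki67* outside that interval. It was found in 46 and 40 of 100 spots, or 10 and 11 of 100 after thinning to 500 UMIs. *Kif11*, a spindle motor, had 25 and 6 UMIs and *Ccnb2*, a mitotic cyclin, 28 and 9; the second counts were under or within 1 UMI of the 95th percentile of a chemosensory gene, 8 UMIs, and no direction is read from them. In the other spots the same list gave -0.39 (-0.46 to -0.33) with CPM. Of the 37 genes, 36 and 27 had more UMIs in the selected spots than 95% of the chemosensory receptor genes, and with that background taken off the ratio of the list was 0.40.

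*Krt17*, a keratin of the follicle that inflamed epidermis also makes, gave most of the follicle UMIs of the selected spots. The 11 genes of the outer root sheath and bulge summed to 3832 and 3792 CPM, and *Krt17* gave 93.7% and 89.6% of these UMIs. *Krt17* ranged from 0 through a median of 3.02 to 7.32 per 1000 UMIs in the *S1pr2fl/fl* spots and from 0 through 2.54 to 10.5 in the *S1pr2fl/fl K14-Cre* spots. It was higher in the selected than in the upper spots in both, with log2 ratios of 0.69 and 0.33. Between the sections its ratio was -0.08 (-0.18 to 0.02) in the selected spots and -1.93 in the other spots. *Krt75*, a keratin of the companion layer, had 68 and 70 UMIs in the selected and 47 and 21 in the upper spots.

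Genes more particular to the follicle were scarce. *Lgr5*, a stem cell gene of the lower follicle, had 0 UMIs in the 100 selected *S1pr2fl/fl* spots, with a Clopper-Pearson upper limit of 3.62% for the share of spots with a UMI, and 2 UMIs in the *S1pr2fl/fl K14-Cre* spots. *Lgr6* had 2 and 6 UMIs, *Sox9* 22 and 11, and *Cd34* 10 and 15. The 20 genes of the inner root sheath and hair shaft had 43 and 84 UMIs in all, with 4 and 2 of them at 0, and 5 and 2 of them had more UMIs than 95% of the chemosensory receptor genes. Their ratio of 1.69 (1.14 to 2.25) between the sections became 0.69 with that background taken off. *Defb6*, a beta-defensin, supplied 313 of 346 and 145 of 178 UMIs of the 3 infundibulum genes, whose ratio between the sections was -0.24 (-0.51 to 0.03). With other settings that ratio lay between -1.0 and 0.23.

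The sum of the sebaceous genes was higher in the selected *S1pr2fl/fl K14-Cre* spots, a difference carried mainly by *Scd1* and not by the list as a group. The 10 genes summed to 381 CPM in the selected spots of the *S1pr2fl/fl* section and 1092 CPM in those of the *S1pr2fl/fl K14-Cre* section, a log2 ratio of 1.52 (1.28 to 1.77), against -0.50 in the other spots. It was 0.35 with the limits of the *S1pr2fl/fl* section. *Scd1*, a fatty acid desaturase, gave 60 and 245 of the 220 and 383 UMIs; the remaining genes, among them *Mgst1* with 49 and 29 UMIs and *Awat1* with 27 and 28, did not share its size. *Scd1* is also used by fat and other cells, and fat genes had a ratio of the same sign, as given with the other tissues. Which cells gave the *Scd1* UMIs was not tested.

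Genes of the tissue beneath the epidermis were present in the selected spots. The 16 dermis genes, fibroblast collagens and matrix proteins for the most part, summed to 5193 CPM in the selected spots, 4507 CPM in the upper spots and 20937 CPM in the other spots of the *S1pr2fl/fl* section. In the *S1pr2fl/fl K14-Cre* section they summed to 8708, 6205 and 26828 CPM. The selected spots thus held dermis genes far below the other spots. Their log2 ratio to the upper spots was 0.20 (0.13 to 0.28) and 0.49 (0.40 to 0.58), but it turned to -0.0059 in the *S1pr2fl/fl* section with spots thinned to 500 UMIs and to -0.024 in the *S1pr2fl/fl K14-Cre* section with the top 100, then 50 spots. A spot ranged from 0 through a median of 2.92 to 29.6 dermis UMIs per 1000 in the former section, and from 0 through 5.50 to 43.4 in the latter. All 16 genes had UMIs in the selected spots of both sections, and *Col3a1* had the most, 931 and 967.

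Between the sections the dermis list was 0.75 higher in the selected *S1pr2fl/fl K14-Cre* spots (0.67 to 0.82), but -0.52 where the limits of the *S1pr2fl/fl* section were applied to both, which left 23 *S1pr2fl/fl K14-Cre* spots. *Col1a1* had 491 and 651 UMIs (1.13, 0.96 to 1.30), whereas *Col6a2* had 142 and 49 (-0.81, -1.31 to -0.34). Of the 14 dermis genes compared, 3 were at least 2-fold higher and 0 lower, near or under the 19.0% and 13.5% of all genes. Fewer cells of a type and less RNA per cell cannot be told apart in such spots. The part of dermal tissue in the other differences between the sections was not tested.

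Muscle and fat genes, which no epidermal cell is known to use at high levels, also had UMIs in the selected spots. The 8 muscle genes summed to 732 and 2392 CPM in the selected spots and to 26015 and 86359 CPM in the other spots. Their ratio between the sections was nearly equal in both kinds of spot, 1.71 (1.54 to 1.88) and 1.73, and 1.03 in the selected spots with the limits of the *S1pr2fl/fl* section. *Acta1*, the actin of skeletal muscle, was the most frequent with 139 and 277 UMIs in 55 and 66 of 100 selected spots. The 7 fat genes had 75 and 195 UMIs, 24 and 111 of them from *Car3*, with *Lep* and *Cidec* at 0 in the *S1pr2fl/fl* section, a ratio of 2.10 (1.71 to 2.50) against 1.65 in the other spots. Whether these UMIs came from cells in the spots or from RNA that spread over the array was not tested.

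The background of chemosensory receptor genes differed as well. The 1226 olfactory, vomeronasal, taste and trace amine receptor genes had 714 UMIs (1236 CPM) in the selected spots of the *S1pr2fl/fl* section and 3261 UMIs (9299 CPM) in those of the *S1pr2fl/fl K14-Cre* section, a log2 ratio of 2.91 (2.79 to 3.03). In the other spots the ratio was 1.10. A selected spot held a median of 1.05 such UMIs per 1000 in the former and 9.09 in the latter, with ranges of 0 to 5.92 and 0.967 to 21.2. Genes with few UMIs in the selected spots therefore had a higher floor in the *S1pr2fl/fl K14-Cre* section, and its part in the other differences was tested only by taking the mean of these genes off.

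Lists of immune and other resident cell genes had between 6 and 652 UMIs in the selected spots of a section. The 5 genes of Langerhans cells and MHC class II summed to 1129 and 1363 CPM in the selected spots, and *Cd74*, the invariant chain of MHC class II, gave 413 and 336 of the 652 and 478 UMIs. *Cd207*, which defines Langerhans cells, had 6 and 5 UMIs against 21 and 9 in the upper spots. Macrophage genes (8) had 250 and 276 UMIs, of which *C1qa*, a complement component, gave 64 and 87, and *Lyz2* had 0 and 2. Their ratio between the sections was 0.86 (0.61 to 1.12), and -0.22 with the limits of the *S1pr2fl/fl* section. T cell genes (7) had 23 and 39 UMIs with *Cd3d* and *Cd8a* at 0 in the *S1pr2fl/fl* section, melanocyte genes (6) 19 and 38, endothelial genes (7) 48 and 54, Schwann cell genes (5) 46 and 61, mast cell genes (5) 6 and 11, and blood genes (4) 21 and 40. For the T cell, melanocyte, endothelial, Schwann cell, mast cell and blood genes these counts were low, and no direction between the sections is read from them.

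*Krt14* had the most UMIs in the selected spots of both sections, and both it and *Lgals7* are genes of the rule. After *Krt14*, the *S1pr2fl/fl* spots had *Krt6b*, *Krt16*, *Krtdap* and *S100a9*, and the *S1pr2fl/fl K14-Cre* spots had *Lgals7*, *Fabp5*, *Krtdap* and *Krt6b*. The 16 hyperproliferation keratins and alarmins, proteins that stressed keratinocytes make, took 104025 and 39036 CPM in the selected spots, 81503 and 34192 CPM in the upper spots and 27717 and 4009 CPM in the other spots. They were thus higher in the selected than in the upper spots, by 0.35 (0.34 to 0.37) and 0.19 (0.15 to 0.23) on the log2 scale. *Krt6a* gave 0.93 and 0.21 for that ratio and *Krt6b* 0.55 and 0.14, whereas *S100a9*, a calcium-binding alarmin, gave 0.03 and 0.06. The 10 genes of a wound and stem cell state summed to 3436 and 2113 CPM in the selected spots and 3437 and 2129 CPM in the upper spots. *Lgals3*, a galectin, gave 70.5% and 55.2% of these UMIs in the selected spots, and the ratio of the list between the sections was -0.70 (-0.82 to -0.58). Other settings kept its sign but moved it to between -1.26 and -0.24.

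The 19 late differentiation genes outside the rule ran the opposite way but remained abundant. They summed to 43359 CPM in the selected and 55288 CPM in the upper spots of the *S1pr2fl/fl* section, and to 19472 and 24621 CPM in the *S1pr2fl/fl K14-Cre* section, log2 ratios of -0.35 (-0.37 to -0.33) and -0.34 (-0.39 to -0.29). Every selected spot held some: the lowest had 20.1 and 2.63 UMIs of these genes per 1000, the median 48.7 and 19.9, and the highest 83.1 and 53.5. Against the other spots, 16 of 18 and 17 of 17 such genes were at least 2-fold higher in the selected spots, where 4.21% and 17.3% of all genes were. The rule set these spots apart by a share of epidermal genes that includes *Krt1* and *Krt10*, so nothing is read from these counts. *Lor*, which encodes loricrin of the cornified envelope (chr3:92080271-92083142), had 3325 UMIs in the upper and 1180 in the selected spots of the first section and 293 and 110 in the second, ratios of -1.49 and -1.72.

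Among 938 genes with at least 100 UMIs over the 200 spots of each section and outside the rule, the genes with the highest and lowest ratios in both sections were named as a description of the split. *Sprr1a*, a cornified envelope precursor made early in stressed epidermis (chr3:92483954-92485881), was highest, with 1551 against 550 UMIs and 536 against 181, which is 2.83 and 2.40 times the CPM. *Gsta4*, a glutathione transferase, gave 1.09 and 1.34, *Tubb6*, a tubulin, 1.14 and 1.00, and *Sprr2i* 1.29 and 0.74. *Csrp1*, *Klk10*, *Csnk1d*, *Tppp3*, *Slpi*, *Capns1*, *Flna*, *Ctss*, *Spcs3*, *Dsg3* and *Pak1ip1* followed. Of these 15, *Tubb6*, *Tppp3*, *Flna*, *Ctss*, *Spcs3* and *Pak1ip1* changed sign in at least 1 section with thinned spots or with the top 100, then 50 spots. No gene of the hemidesmosome list and none of the proliferation lists was among these 15, while *Dsg3*, a desmosomal cadherin of the lower layers, was, with ratios of 0.62 and 0.81.

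Of the 15 lowest, *Lor*, *Casp14* and *Calm4* were on the late differentiation list. After *Lor* came *Chit1*, a chitinase (-1.16 and -2.03), *Chil1*, a related protein (-0.72 and -0.86), *Abhd12b* (-0.92 and -0.66), *Alox8*, a lipoxygenase (-0.64 and -1.78), and *Casp14*, the caspase of cornifying cells (-0.65 and -0.87). *Susd2*, *Calml3*, *Calm4*, *Zswim4*, *Il1f5*, *Bhlhe40*, *Pawr*, *Rprd2* and *Fam25c* made up the rest, of which *Rprd2* turned to 0.67 in the *S1pr2fl/fl K14-Cre* section with the top 100, then 50 spots. The 13 desmosome and junction genes outside the rule were higher in the selected spots, by 0.24 (0.19 to 0.28) and 0.16 (0.10 to 0.23), with *Gjb2*, a gap junction protein, at 0.68 and 0.22.

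**Figure D4:**
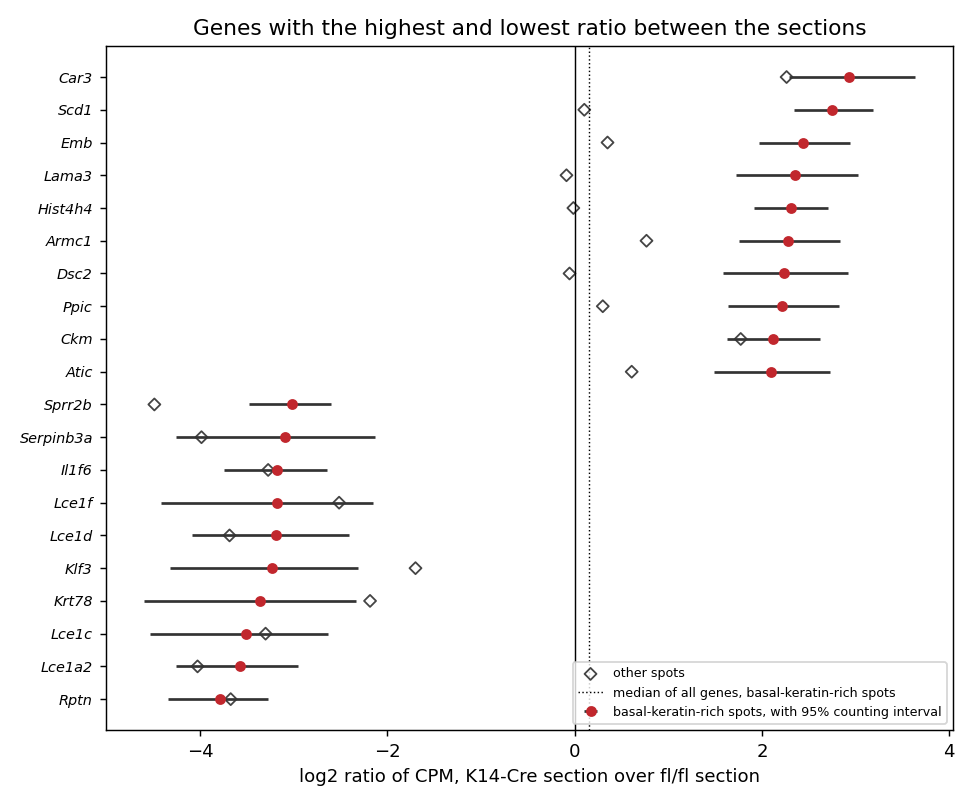
Log2 ratio of CPM, *S1pr2fl/fl K14-Cre* over *S1pr2fl/fl*, for the 10 highest and 10 lowest genes in the basal-keratin-rich spots (red, with the 95% counting interval) and in the other spots (open diamonds). The dotted line is the median of all genes in the selected spots, 0.15, which moves to -0.41 with TMM scaling; the 10 lowest genes lie between -4.49 and -1.70 in the other spots, and among the 10 highest only *Car3* and *Ckm* are above 1 there.

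Between the sections, late differentiation genes of the selected spots were lower in the *S1pr2fl/fl K14-Cre* section. Of the 18 late differentiation genes that reached 20 UMIs, 15 were at least 2-fold lower in the *S1pr2fl/fl K14-Cre* section and 0 higher, where 13.5% and 19.0% of all genes were, and the list summed to a log2 ratio of -1.15 (-1.19 to -1.12). *Lor* had 1180 and 110 UMIs, a ratio of -2.70. *Krtdap*, a secreted peptide of differentiating keratinocytes, had 10068 and 2826, a ratio of -1.11. *Tgm1*, the transglutaminase that joins envelope proteins, stood apart with 482 and 530 UMIs, a ratio of 0.86 (0.68 to 1.04). The rule itself set the selected spots of the 2 sections at different ratios of *Krt1*, *Krt10*, *Flg* and *Hrnr* to basal keratins, and the same list gave -1.17 in the upper 100 spots and -2.85 in the other spots. It gave -0.55 where the limits of the *S1pr2fl/fl* section were applied to both, and -1.71 with TMM scaling.

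Of the 10 lowest genes among the 1634 with at least 100 UMIs over the selected spots, *Lce1c* was on the late differentiation list and *Il1f6* on the alarmin list, and the others were on no list. *Rptn*, repetin of the granular layer (chr3:93393699-93399442), was lowest with 727 and 32 UMIs, a log2 ratio of -3.79 (-4.34 to -3.28). *Lce1a2* (430 and 22 UMIs), *Lce1c* (206 and 11), *Lce1d* (211 and 14) and *Lce1f* (119 and 8), all late cornified envelope genes, lay between -3.57 and -3.18. *Sprr2b* had 642 and 48 UMIs, the keratin *Krt78* 135 and 8, the transcription factor *Klf3* 155 and 10, and the serine protease inhibitor *Serpinb3a* 127 and 9. *Il1f6*, which encodes the cytokine IL-36 alpha, had 461 and 31 UMIs, a ratio of -3.17 (-3.75 to -2.65). In the *S1pr2fl/fl K14-Cre* section *Lce1f*, *Krt78* and *Serpinb3a* were at or within 1 UMI of the 95th percentile of the chemosensory genes, 8 UMIs, so their ratios rest on counts near the background.

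Alarmins and hyperproliferation keratins were lower too: 9 of 15 genes were at least 2-fold lower and 1 higher, where 13.5% and 19.0% of all genes were, and the list gave -1.41 (-1.44 to -1.39), or -0.93 with the limits of the *S1pr2fl/fl* section. *S100a9* ranged from 4.84 through a median of 14.4 to 36.2 per 1000 UMIs in the *S1pr2fl/fl* spots and from 0 through 1.96 to 12.3 in the *S1pr2fl/fl K14-Cre* spots, a ratio of the sums of -2.81. *Krt6b* ranged from 4 through 22 to 40.8 and from 0 through 7.36 to 23.4, a ratio of -1.41. *Krt16* gave -1.79, *Krt6a* -1.42 and *S100a8* -1.15. *Slpi*, a secreted protease inhibitor, was the exception with 264 and 466 UMIs, a ratio of 1.54 (1.32 to 1.76), against -1.38 in the other spots. In the other spots the whole list gave -2.79.

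The highest genes were of mixed kinds. *Car3*, a carbonic anhydrase of fat and muscle, had 24 and 111 UMIs (2.93), and *Ckm*, muscle creatine kinase, 48 and 126 (2.11); both were also higher in the other spots. *Scd1* (2.75), *Emb* with 48 and 158 UMIs (2.44), *Lama3* (2.36), the histone gene *Hist4h4* with 74 and 222 (2.31), *Armc1* with 41 and 121 (2.28), *Dsc2* with 27 and 77 (2.23), *Ppic* with 34 and 96 (2.22) and *Atic* with 32 and 83 (2.10) had ratios between -0.09 and 0.77 in the other spots. With the limits of the *S1pr2fl/fl* section in both, the 10 highest genes lay between 0.58 (*Ckm*) and 2.88 (*Car3*), with *Dsc2* at 0.71, and the 10 lowest between -3.87 (*Rptn*) and -1.16 (*Krt78*). *Dsc2* and *Lama3* are genes of cell junctions and of the basement membrane. Of the 12 desmosome and junction genes compared, 1 was at least 2-fold higher and 2 lower, where 19.0% and 13.5% of all genes were. The list as a whole lay at -0.10 (-0.16 to -0.05) with CPM. Over the other settings it ran from -0.66 to 0.36, the highest value when scaled to *Krt5* and *Krt14* UMIs. With CPM *Dsc3* at -1.22 and *Pkp1* at -1.26 lay below the list and *Gjb6* at 0.65 above.

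**Figure D5:**
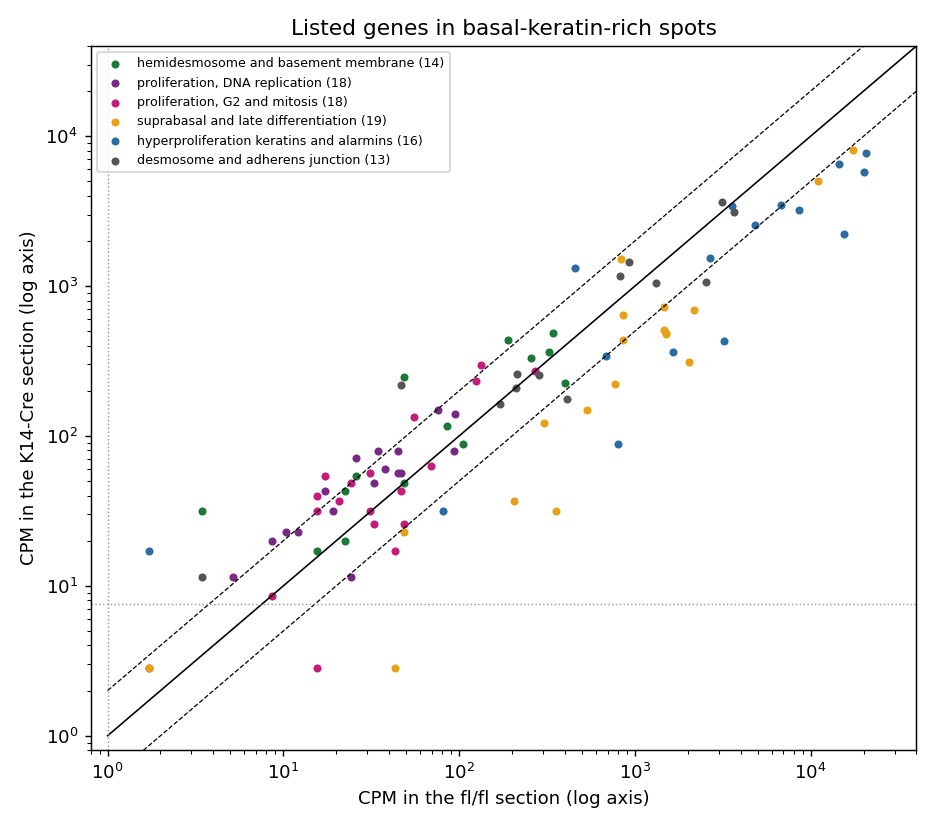
CPM of listed genes in the basal-keratin-rich spots of the *S1pr2fl/fl* (horizontal) and *S1pr2fl/fl K14-Cre* section (vertical), both on log axes; the solid line marks equal levels, dashed lines 2-fold differences and dotted lines the mean of a chemosensory receptor gene. Late differentiation genes (yellow) and alarmins (blue) fall mostly under the lower dashed line, while hemidesmosome (green) and proliferation genes (purple, pink) scatter about the solid line, a position that shifts downward by 0.55 on the log2 scale with TMM factors.

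The selected spots were divided by array column into 4 stretches of 25 spots, which are parts of 1 section and not replicates. *Rptn*, *Lama3*, *Scd1* and *Slpi* were named for their differences in these same spots. Their values by stretch are therefore a description and add no support. *Rptn* lay between 912 and 1477 CPM in the stretches of the *S1pr2fl/fl* section and between 53.9 and 113 CPM in those of the *S1pr2fl/fl K14-Cre* section, and the late differentiation list between 38924 and 49590 and between 17481 and 24873 CPM. *Lama3* lay between 22.4 and 74.3 and between 204 and 300 CPM, *Scd1* between 50.3 and 134 and between 385 and 946, and *Slpi* between 293 and 610 and between 765 and 2331. *Rptn* had only 4 to 16 UMIs a stretch in the *S1pr2fl/fl K14-Cre* section, and *Lama3* only 2 to 17 in the *S1pr2fl/fl* section. The rule set the 2 sections at different ratios of differentiation to basal keratins, so the late differentiation list adds no support either. With CPM the stretches of the 2 sections did not overlap for these genes and that list, but with TMM factors those of *Slpi* did (354 to 737 and 629 to 1918). They did not overlap either for the hemidesmosome list (1519 to 2173 and 2330 to 2655 CPM) and, by a narrow margin, the proliferation list (1376 to 1859 and 1911 to 2765 CPM), both of which lose this order with TMM scaling. They overlapped for *Krt17* (2224 to 4524 and 3112 to 3892 CPM) and for the other basal genes (554 to 942 and 539 to 1057 CPM).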

How the data were processed

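Spatial transcriptomics of 2 sections was analysed, 1 per group. The authors deposited UMI counts per gene and spot without normalization, with array positions; per the file headers these counts came from Space Ranger 3.0.0, and the submitters' processing notes name the build mm10. The probe set is not given in the sources used here, and the methods also name Partek Flow for images and reads. Gene positions are those of RefSeq for GRCm38.p6. The files hold 19465 genes; 11 symbols occur more than once.

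Members and gene lists were chosen with earlier results of these data known. Counts were summed over the spots of a region and divided by all its UMIs, as CPM (per 1000000 UMIs). Intervals of 95% are exact Poisson limits of CPM, Clopper-Pearson limits of shares and, for a ratio, binomial limits given the sum of both counts. UMIs are counted molecules of 1 section, so intervals cover counting error only. Genes with at least 20 UMIs over both sets were compared, and at least 2-fold in CPM with a pseudocount of 0.5 UMIs was counted as higher or lower; printed ratios carry no pseudocount.

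Named genes were those of 24 lists (264 genes, of which 255 were matched and 9 not analysed here), *S1pr2*, the 10 highest and 10 lowest between the sections and the 15 highest and 15 lowest between selected and upper spots, each with at least 100 UMIs. Doublet calling does not apply to spots. Alternatives concerned the spots chosen, depth, scaling, background and minimum counts. The calculations were tested on simulated data. Python 3.11.15, numpy 2.4.6, scipy 1.17.1, pandas 2.3.3, matplotlib 3.10.9 and, for TMM factors, edgeR 4.0.16 in R 4.3.3 were used.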

Additional observations from a re-analysis of the deposited data

Results flagged for a closer look

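Several gene lists differed between the sections in opposite directions in the basal-keratin-rich and the other spots, with both counting intervals away from 0. With TMM scaling the selected spots gave -0.0069 for proliferation, 0.073 for DNA replication, -0.060 for G2 and mitosis and -0.28 for Langerhans cells, so that of these 4 values DNA replication alone kept its sign. The differences between the ratios were not tested. As log2 ratios of *S1pr2fl/fl K14-Cre* over *S1pr2fl/fl*, the proliferation list gave 0.55 in the selected and -0.39 in the other spots, its DNA replication genes 0.63 and -0.29, and its G2 and mitosis genes 0.49 and -0.50. The sebaceous list gave 1.52 (0.35 with the *S1pr2fl/fl* limits) and -0.50, with *Scd1* as its main gene in the selected spots of the *S1pr2fl/fl K14-Cre* section. The blood list gave 1.65 and -2.22, but its 21 and 40 UMIs in the selected spots are few, and no direction is read from them. The Langerhans cell and MHC class II list gave 0.27 and -0.25, and its value in the selected spots turned to -0.060 with the top 100, then 50 spots and to -0.64 with the *S1pr2fl/fl* limits. Selected over upper spots, that list gave -0.22 in the *S1pr2fl/fl* section, which turned to 0.069 with the top 100, then 50 spots, and 0.21 in the *S1pr2fl/fl K14-Cre* section, which turned to -0.15 with thinned spots; *H2-Eb1* had 79 against 135 and 70 against 34 UMIs.

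Spots with fewer than 500 UMIs could not be selected, but some held basal keratins. In the *S1pr2fl/fl* section 186 such spots had 631 UMIs of *Krt5* and *Krt14* among 40706, and in the *S1pr2fl/fl K14-Cre* section 34 such spots had 48 among 9117.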

How the results depend on the processing

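Each result was recomputed under up to 13 other settings. Of the comparisons of the 5 lists between the sections, the 4 within sections and the 2 gene counts, 52 values lay close to those reported, 39 moved and 3 reversed; of the single genes and other lists, 767 lay close, 201 moved and 25 reversed. Restricting the tissue to connected groups of at least 20 spots kept the same selected spots, tests nothing and is not counted. The alternatives scaled to *Krt5* and *Krt14* and with all 200 spots were chosen after seeing the data. With the limits of the *S1pr2fl/fl* section the *S1pr2fl/fl K14-Cre* section kept 23 selected and 4 upper spots, too few for a comparison within that section. No paired analysis was possible because each group is 1 section. Causes of the shifts were not tested.

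Between the sections (log2 ratio), the hemidesmosome list gave -0.14 with TMM and 0.88 scaled to *Krt5* and *Krt14*. The proliferation list gave 0.41 with spots of at least 1000 UMIs, 0.90 with spots thinned to 500 UMIs, 0.26 with the *S1pr2fl/fl* limits, -0.0069 with TMM, 0.71 as a mean over spots, 0.40 with the background taken off, 1.01 scaled to *Krt5* and *Krt14* and 0.70 with all 200 spots. The outer root sheath list gave 0.18 with the top 100, then 50 spots, 0.18 thinned, -0.12 with the *S1pr2fl/fl* limits, -0.57 with TMM, 0.45 scaled to *Krt5* and *Krt14* and 0.13 with all 200 spots. The inner root sheath list gave 2.79 with the top 100, then 50, 1.13 with TMM and 0.69 with the background taken off. The dermis list gave 0.87 with at least 1000 UMIs, 0.44 with the top 100, then 50, -0.52 with the *S1pr2fl/fl* limits, 0.19 with TMM, 0.86 as a mean over spots, 1.21 scaled to *Krt5* and *Krt14* and 0.65 with all 200 spots.

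Genes at least 2-fold higher numbered 760 with the top 100, then 50, 141 thinned, 788 with the *S1pr2fl/fl* limits, 550 with TMM, 2922 and 473 with a minimum of 10 and 50 UMIs, 2365 scaled to *Krt5* and *Krt14* and 2605 with all 200 spots, against 1297. Genes at least 2-fold lower numbered 142 thinned, 1936 with TMM, 480 with a minimum of 50 UMIs and 414 scaled to *Krt5* and *Krt14*, against 920. Fewer genes passed the minimum in thinned spots (795) than as deposited (6818).

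Within the *S1pr2fl/fl* section, thinning gave 0.61 for the hemidesmosome and 0.62 for the proliferation list. Within the *S1pr2fl/fl K14-Cre* section the proliferation list gave -0.20 with the top 100, then 50 and 0.42 thinned.

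Among the other lists, reversals between the sections were -0.060 for G2 and mitosis (TMM); 0.16 (top 100, then 50), 0.057 (*S1pr2fl/fl* limits) and 0.36 (scaled to *Krt5* and *Krt14*) for desmosomes; -0.22 for macrophages and -0.79 for melanocytes (*S1pr2fl/fl* limits); and -0.060 (top 100, then 50), -0.64 (*S1pr2fl/fl* limits) and -0.28 (TMM) for Langerhans cells. Selected over upper spots reversed with the top 100, then 50 to -0.024 for dermis, -0.22 for macrophages and 0.26 for T cells in the *S1pr2fl/fl K14-Cre* section, and to 0.19 for blood and 0.069 for Langerhans cells in the *S1pr2fl/fl* section. Thinning turned dermis to -0.0059 in the *S1pr2fl/fl* and Langerhans cells to -0.15 in the *S1pr2fl/fl K14-Cre* section. Of the named genes, the top 100, then 50 turned *Ctss* (-0.86), *Rprd2* (0.67), *Tppp3* (-0.38) and *Pak1ip1* (-0.0079) in the *S1pr2fl/fl K14-Cre* section, and *Spcs3* (-0.22), *Tppp3* (-0.57) and *Flna* (-0.21) in the *S1pr2fl/fl* section. Thinning turned *Pak1ip1* (-0.38) in the former and *Tubb6* (-0.14) in the latter.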
